A study of Homo sapiens with 8 samples.

Results

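The CTCF peaks described here are those that control HT1080 cells carried inside very long genes. A peak was a member if its centre lay inside a protein-coding gene record longer than 500 kb on chromosomes 1 to 22 and more than 1 kb from any protein-coding transcription start. Of the 47470 peaks of control cells, 46054 lay on these chromosomes and 3038 met the rule. They lay in 310 long gene records that together cover 256.2 Mb, and the records were from 501 to 2474 kb long, 67 of them over 1000 kb. All but 1 of the records had members of their own, with a median of 9 and at most 31. The exception was FOXP1, whose 6 peaks also lie in a longer overlapping record of 795 kb without a gene symbol and were counted there.

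HT1080 is a human fibrosarcoma line of connective tissue, labelled ras +. The control cells were untreated, and the treated cells received 3 µM CBL0137 for 6 h. CBL0137 is a curaxin, an anti-cancer compound that binds DNA and disturbs its contact with histones. Each condition had 2 libraries of chromatin immunoprecipitated with an antibody against CTCF and 2 of input DNA, 8 in all, and the labels name no other difference between the conditions. Both replicates of a condition had been merged into a single peak list before deposit, so no value below has an error between replicates. The lists hold no read counts, and the depth behind a peak is therefore not known here. A member was called kept if at least 1 base of it was covered by a peak of treated cells and lost if none was. A lost peak is a peak that was not called after treatment, which does not exclude weaker CTCF binding at the site. All intervals are 95% intervals that cover counting error only, and peaks are not replicates of the treatment.

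CTCF is a zinc finger protein that binds an oriented DNA consensus and halts cohesin as it extrudes loops, so that its sites border many loops and domains. Very long genes owe their length to their introns. Many of them encode adhesion molecules, ion channels and scaffolds of neurons, and several lie at common fragile sites, which are prone to break when replication is slowed. Expression of the genes in HT1080 was not analysed here.

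The site itself is shown first for 8 named members, chosen by rules on their strength or on the fate of all peaks of their gene. Each line holds 30 bases of GRCh37, read 5′ to 3′ on the strand that carries the match, with the 12-letter core of the CTCF consensus in capitals. RUNX1 was lost although its peak was among the strongest (chr21:36772914-36772943, minus strand). PARD3 (chr10:34512804-34512833, plus strand), CELF2 (chr10:11155309-11155338, plus strand) and CDH18 (chr5:20231331-20231360, minus strand) were kept although they were among the weakest. CNTNAP2 (chr7:147939537-147939566, minus strand) was among the strongest kept peaks. PCDH9 (chr13:67798554-67798583, minus strand) and FSTL5 (chr4:163052619-163052648, minus strand) were the strongest peaks of genes that lost all of their peaks, and PPP2R2B (chr5:146041890-146041919, plus strand) that of a gene that kept all of them.
RUNX1: taaggaaggCCAATAGGTGGCagagcaatc
PARD3: gacacacagCCAGCAGGTGGCagcccctgg
CELF2: ttattaccaCCACTAGATGGTgcatgggga
CDH18: attcacataCCACTAGGGGGAactaaaccc
CNTNAP2: agctaatgaCCACTAGAGGGCattttaaca
PCDH9: cgataatagCCTGTAGATGGCactagggta
FSTL5: gaaatgaagCCACCAGATGGCcaattttag
PPP2R2B: tgcctcccaCCAACAGATGGCagtagtaat
The cores of PARD3, CNTNAP2 and FSTL5 matched the consensus at every letter and the others had 1 mismatch, so that perfect cores stood in a weak kept peak, in a strong kept peak and in a lost peak.

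The question of the first comparison was how many of the CTCF peaks inside very long genes were still found after CBL0137. Of the 3038 members, 1632 were lost, which is 53.7% (51.9 to 55.5), and 1406 were kept. Over all control peaks on chromosomes 1 to 22 the lost share was 42.7%. Both shares depend on the length of the lists: when the control list was shortened by fold to the 28796 peaks of the treated list, 33.6% of members and 24.2% of all control peaks were lost. Peaks inside protein-coding genes of 500 kb or less were lost in 41.7% of 18149 cases, and peaks outside protein-coding genes in 44.7% of 20333 cases. The 4534 peaks within 1 kb of a protein-coding start, which are no members by the rule, had the lowest lost share, 29.9%. The members thus exceeded the peaks of shorter genes by 12.03 percentage points (10.1 to 13.9) and the peaks outside genes by 8.99 points (7.09 to 10.9), and both intervals lay above 0. Peaks of shorter genes and peaks outside genes that lay within 500 kb of a long gene numbered 4220 together, and 46.0% were lost. The members exceeded these by 7.72 points (5.39 to 10.04).

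The members also differed from the other peaks in properties that went along with loss. They were somewhat weaker, with a median fold enrichment of ChIP over input in control cells of 26.5 against 27.7 in shorter genes and 29.3 outside genes. Their sequence was poorer in G and C, with a median GC content of 41.4% over 500 bp against 45.4% and 44.8%. Compared at equal control fold, the members were lost more often than peaks of shorter genes by 10.1 points (8.47 to 11.7) and more often than peaks outside genes by 3.76 points (2.14 to 5.38). At equal GC content, these differences were 6.69 points (4.78 to 8.61) and 3.52 points (1.63 to 5.42). With both held equal, 7.24 points (5.59 to 8.89) were left against shorter genes and 1.71 points (0.084 to 3.34) against peaks outside genes. The distance from shorter genes was therefore larger than counting error under each comparison, whereas most of the distance from peaks outside genes was no longer there at equal fold and GC content.

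Loss rose with the length of the gene in every step of the annotation. The lost share was 33.2% (31.9 to 34.6) in records of up to 50 kb, 39.4% between 50 and 100 kb, 43.3% between 100 and 200 kb and 49.1% between 200 and 500 kb. Within the long genes it was 52.2% (50.1 to 54.3) in the 243 records of up to 1000 kb and 57.4% (54.1 to 60.6) in the 67 longer ones. Along the same steps, the median GC content of the peaks fell from 51.4% to 40.0%, and the number of peaks per Mb of gene fell from 21.1 to 9.61. At equal control fold the rise from the shortest to the longest class ran from 34.7% to 53.4%. At equal fold and GC content it ran from 38.8% to 51.6%, the last value resting on groups of as few as 1 peak. At the limit of the rule, ANO5, the shortest record above it that held a peak (500.9 kb), lost 5 of 6 peaks, and DIAPH3, the longest below it (498.3 kb), lost 3 of 5.

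**Figure D1:**
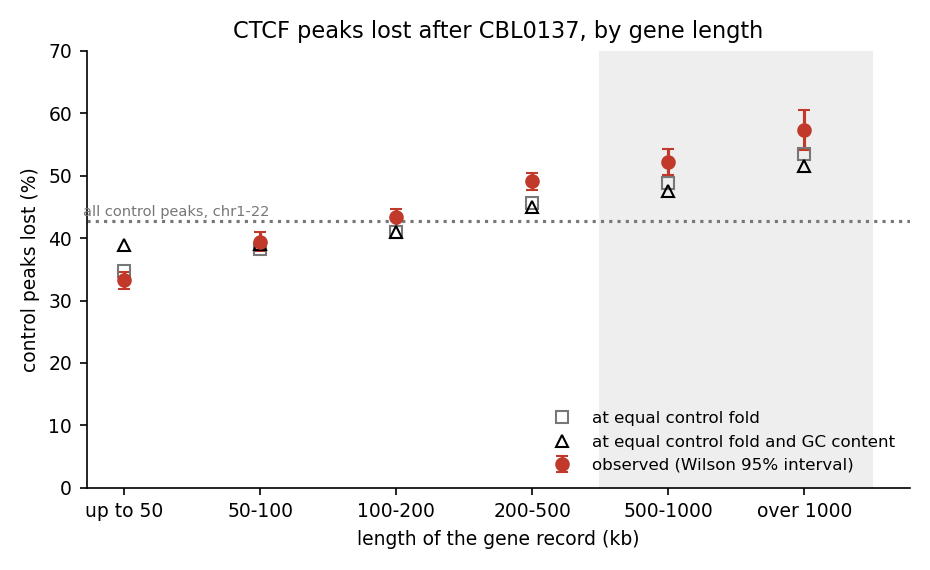
Lost share of control CTCF peaks (%, vertical axis) by the length of the gene record (kb, horizontal axis), as observed with Wilson 95% intervals (red points) and averaged over groups of equal control fold (squares) or of equal fold and GC content (triangles). The observed share climbs from 33.2% to 57.4%, the 2 classes of long genes (shaded) stand highest, and the dotted line is the 42.7% of all control peaks on chromosomes 1 to 22.

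The higher loss in long genes was seen on most chromosomes. On 20 of the 21 chromosomes that hold members, the members were lost more often than the other control peaks of the same chromosome, with a median difference of 9.12 points. These other peaks include those within 1 kb of a protein-coding start, and neither fold nor GC content was held equal. The largest difference, 26.7 points, was on chromosome 21, where 27 of 39 members were lost, and RUNX1 alone accounted for 12 of these. Chromosome 22 was the exception, with 9 of 29 members lost and a share 2.81 points below its other peaks.

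Within the long genes, the strength of a peak in control cells went along with its fate. Lost members had a median control fold of 20.8 (quartiles 14.7 and 27.5) and kept members of 33.3 (26.5 and 41.9). A kept member had the higher fold with a probability of 0.807 (0.791 to 0.823). Lost members were also narrower, with a median width of 200 bp against 350 bp, and 50.2% of them had an FDR of at most 1e-05 in the authors' list, against 92.5% of kept members. When all control peaks were divided into 10 groups of equal size by fold, 93.8% of the members in the weakest group were lost (318 of 339) and 12.4% in the strongest (27 of 218). The members had a higher lost share than the peaks of shorter genes in each of the 10 groups. In percentage points the gap was largest between folds of 21.4 and 24.96, where 65.2% of members were lost against 50.2%. Against peaks outside genes, the members were higher in every group except that between folds of 17.7 and 21.4. There 71.6% of members and 71.8% of the peaks outside genes were lost.

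**Figure D2:**
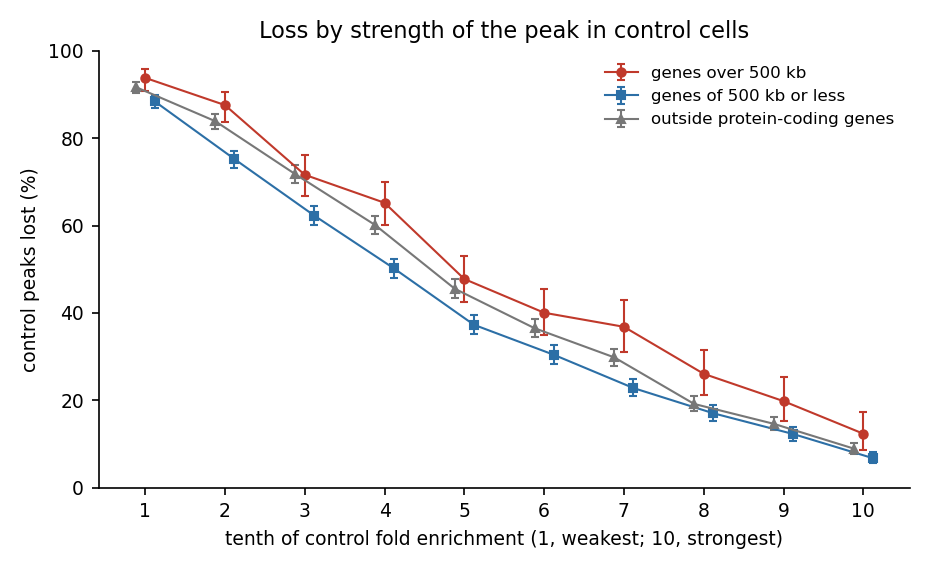
Lost share (%, vertical axis) in 10 groups of control fold enrichment, from weakest to strongest (horizontal axis), for peaks in genes over 500 kb (red circles), in genes of 500 kb or less (blue squares) and outside protein-coding genes (grey triangles), with Wilson 95% intervals. All 3 classes fall steeply with strength, and the red points, from 93.8% to 12.4%, lie above the blue ones in every group.

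Members at the ends of the range broke this order. Among the strongest lost members were peaks of SMYD3, which encodes a lysine methyltransferase, with a control fold of 66.9, PSD3 with 63.8, SORCS1, which encodes a sorting receptor, with 61.2 and RUNX1, which encodes a transcription factor of blood formation, with 61.2. All 4 lay in introns, and on a scale of rank from 0 for the weakest to 100 for the strongest control peak they stood between 97.5 and 98.8. Of these peaks, that of RUNX1 alone had a consensus core with at most 1 mismatch. It is shown whole below (chr21:36772801-36773050, plus strand), with the core, which lies on the minus strand, in capitals.
RUNX1 peak: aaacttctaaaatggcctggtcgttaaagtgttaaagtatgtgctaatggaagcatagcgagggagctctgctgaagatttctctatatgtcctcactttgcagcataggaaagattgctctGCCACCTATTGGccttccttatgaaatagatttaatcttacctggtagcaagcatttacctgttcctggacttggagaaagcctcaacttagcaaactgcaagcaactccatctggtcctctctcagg
The weakest kept members were peaks of PARD3, a cell polarity gene, with a control fold of 7.70, CELF2, which encodes a splicing regulator, with 9.56, B3GALT1 with 9.96, the cadherin gene CDH18 with 10.7 and GLIS3, which encodes a zinc finger factor, with 10.9. Of these, 3 carried a core with at most 1 mismatch. The PARD3 peak, 100 bp wide and with a perfect core, is shown for comparison (chr10:34512801-34512900, plus strand).
PARD3 peak: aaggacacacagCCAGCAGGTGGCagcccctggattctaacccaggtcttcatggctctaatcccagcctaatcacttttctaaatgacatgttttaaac
Among the strongest kept members was a peak of CNTNAP2, with a control fold of 83.8.

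The consensus core, with at most 1 mismatch within 400 bp, was found in 1435 members, 47.2% (45.5 to 49.0). Windows 10 kb away held it in 2.14%, which is a check of the antibody's target. It was present in 64.3% of kept members (904 of 1406) and in 32.5% of lost members (531 of 1632), a difference of 31.8 points (28.3 to 35.1). Members with a core were also stronger, with a median control fold of 29.8 against 23.2. Members without a core were lost more often than those with a core by 31.7 points (28.3 to 35.0), and at equal control fold by 18.0 points (14.9 to 21.1). Among members in the 2 strongest of the 10 fold groups, 39.5% of the 76 lost ones had a core (29.2 to 50.7) and 67.1% of the 389 kept ones (62.3 to 71.6). In the 2 weakest groups the core was in 27.2% of 621 lost members and in 42.2% of 64 kept ones.

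No difference in fate by the direction of the core relative to transcription of the gene was found beyond counting error. Of the members with a core, 696 carried it on the strand of the gene and 697 on the opposite strand, while members with cores on both strands were left out. The lost shares were 36.6% and 38.3%, and the difference of -1.67 points had an interval from -6.73 to 3.41. It turned to 4.87 points (-0.901 to 10.6) when both lists were restricted to an FDR of at most 1e-05. Loss fell with GC content, from 62.4% of the 740 members with a GC content of 36.2% or less over 57.0% and 54.1% to 41.9% of the 780 members with 46.2% or more. The median control fold rose along these 4 groups from 24.1 to 31.0, and the share with a core lay between 44.6% and 49.7% in all of them.

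At the level of genes, 262 long genes had at least 5 members. The median of their lost shares was 55.6%, and in 194 of them the share was above the 42.7% of all control peaks. The Wilson interval of the share lay wholly above this value in 42 genes and wholly below it in 4. From control fold alone, with the lost share that all control peaks had in each of the 10 fold groups, 1405 of the 3038 members would have been lost, and 1632 were. All control peaks include the members themselves and the peaks near protein-coding starts, which had the lowest lost share. The number lost was above that given by fold in 177 of the 262 genes.

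Of the genes with most members, 10 tied at 18, and 9 of these are among the 25 described because ties were taken in alphabetical order. ZFHX3, a homeobox transcription factor that lost 13 of 18, was the gene left out. The highest counts were those of NTM, an adhesion molecule of the immunoglobulin family, PDE4D, a phosphodiesterase that degrades cyclic AMP, and RBFOX1, a splicing regulator, with 31 each. NTM (chr11:131240373-132206716) lost 14 of them, PDE4D (chr5:58264865-59817947) lost 16 and RBFOX1 (chr16:5289803-7763342) lost 12. In RBFOX1, the longest of the 310 records, the lost peaks had control folds from 13.3 to 37.4 and lay between 246 and 2376 kb from the start, interspersed with kept peaks with folds from 17.6 to 52.8. In NTM, a cluster of 5 peaks between 298 and 325 kb with folds from 37.5 to 52.2 was kept whole, while peaks with folds of 58.4, 46.4 and 40.0 at 744, 930 and 909 kb were lost.

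Adhesion and synaptic genes with high counts divided as follows. PTPRD, a receptor phosphatase of synapses, lost 19 of 28, TENM2, a teneurin, 15 of 24, DLG2, a postsynaptic scaffold, 16 of 23, and MAGI2, a further scaffold, 14 of 22. These 4 shares lay between 62.5% and 69.6%, with intervals above the background, in TENM2 by a narrow margin (lower bound 42.71%). All 4 intervals also include the 53.7% of all members, so none of these genes differed from the members as a whole beyond counting error. LSAMP, of the same family as NTM, and NRXN3, a neurexin, each lost 11 of 22. CNTNAP2, a contactin-associated protein, lost 11 of 19, SDK1, an adhesion molecule, 9 of 19, CDH13, a cadherin without a cytoplasmic domain, 9 of 18, CSMD1 10 of 18 and ANKS1B 9 of 18.

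Among channels, receptors and signalling genes, ASIC2, an acid-sensing sodium channel, lost 7 of 21, GRID1, of the glutamate receptor family, 12 of 18, KALRN, a guanine nucleotide exchange factor, 9 of 18, PLCB1, a phospholipase C, 7 of 18 and TBC1D5, a Rab GTPase-activating protein, 10 of 18. ANK3, which encodes ankyrin-G and anchors channels to the cytoskeleton, lost 12 of 18. The intervals of GRID1 and ANK3, each 43.7 to 83.7%, also lay above the background and include the 53.7% of all members. THSD4, a matrix protein, lost 10 of 22, the deacetylase gene HDAC9 10 of 18 and the read-through record IQCJ-SCHIP1 13 of 23. KAZN, a protein of cell junctions, lost 8 of 23. GSE1, a partner of a histone demethylase complex, lost 4 of 23 and stood apart from the other 24 genes of highest count, since its interval of 6.98 to 37.1% lay below the background. Its peaks also had the highest median control fold of these 25 genes, 46.3, and a median GC content of 61.4%. By fold alone, 5.24 GSE1 peaks would have been lost.

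**Figure D3:**
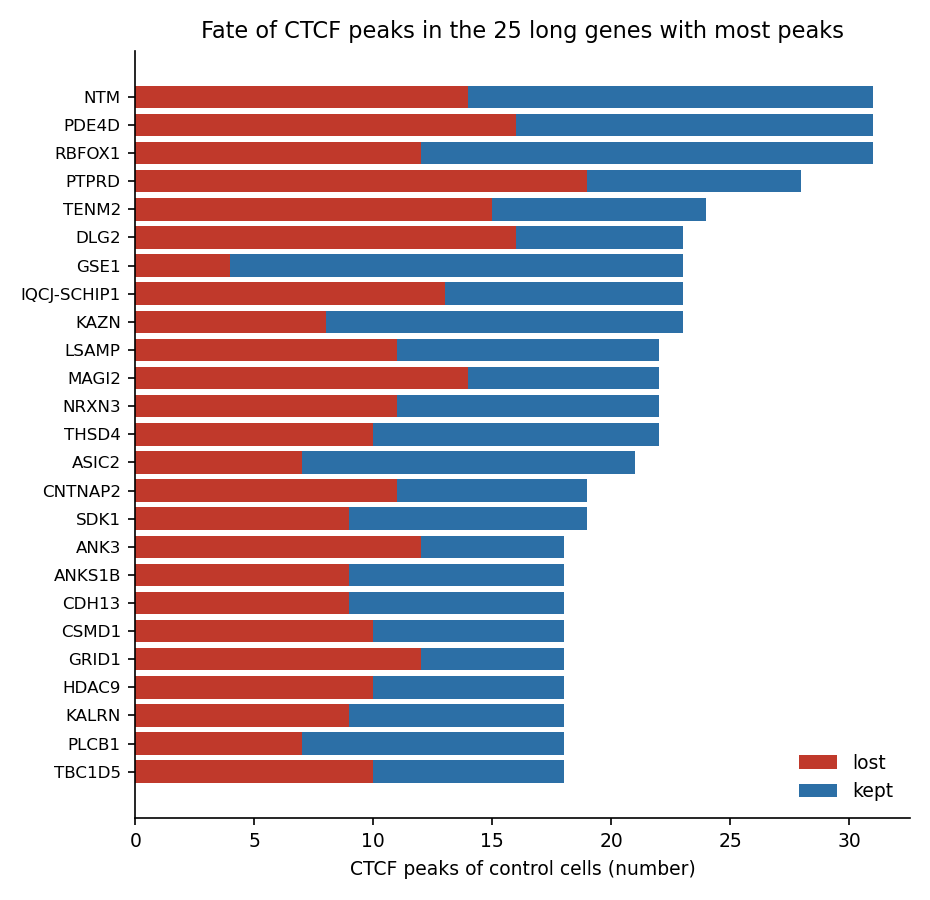
Number of control CTCF peaks (horizontal axis) in the 25 long genes with most of them, divided into lost (red) and kept (blue); ZFHX3, which ties with the last at 18, is not drawn. Lost peaks number from 4 of 23 in GSE1 to 19 of 28 in PTPRD.

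In 6 genes with at least 5 members every member was lost. PCDH9, a protocadherin, lost 7, with control folds of 36.03, 8.17, 17.7, 20.9, 15.2, 21.6 and 15.9 in order from the start of the gene. AUTS2, a gene of neural development, lost 6, with folds between 13.5 and 32.6. FOXP2, a forkhead transcription factor, lost 6, with folds between 11.3 and 29.1. SH3RF3, a ubiquitin ligase, lost 6 with folds between 19.5 and 31.0. FSTL5, a secreted follistatin-like protein, and MGAT4C, a glycosyltransferase, lost 5 each, with folds of 16.1 to 25.3 and of 12.4 to 21.0. No peak of these 6 genes thus exceeded a fold of 36.03, and their median folds, between 14.1 and 24.7, were below the 26.5 of all members. The genes were chosen because all of their members were lost, and lost members as a whole had a median fold of 20.8. The median folds of the 6 genes lay on both sides of that value. The median GC content of their peaks was between 34.2% and 40.1% except in SH3RF3, where it was 53.2%. From fold alone, between 2.92 and 4.70 peaks would have been lost in each.

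Of the genes with at least 5 members, 3 kept every member. GABRG3, a subunit of the GABA-A receptor, kept 8, with control folds of 35.7, 51.5, 43.7, 41.6, 68.4, 65.4, 17.1 and 44.9 from start to end. GRM8, a metabotropic glutamate receptor, also kept 8, with folds of 41.8, 35.8, 25.7, 18.8, 28.6, 23.7, 21.2 and 38.7. PPP2R2B, a regulatory subunit of protein phosphatase 2A, kept 5, with folds of 29.2, 32.0, 28.3, 60.5 and 23.1. The peaks of GABRG3 were strong, whereas those of GRM8 had a median fold of 27.1, close to the 26.5 of all members, and from fold alone 3.19 of them would have been lost. With 8 peaks, a lost share of 0 has an upper Wilson bound of 32.4%.

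**Figure D4:**
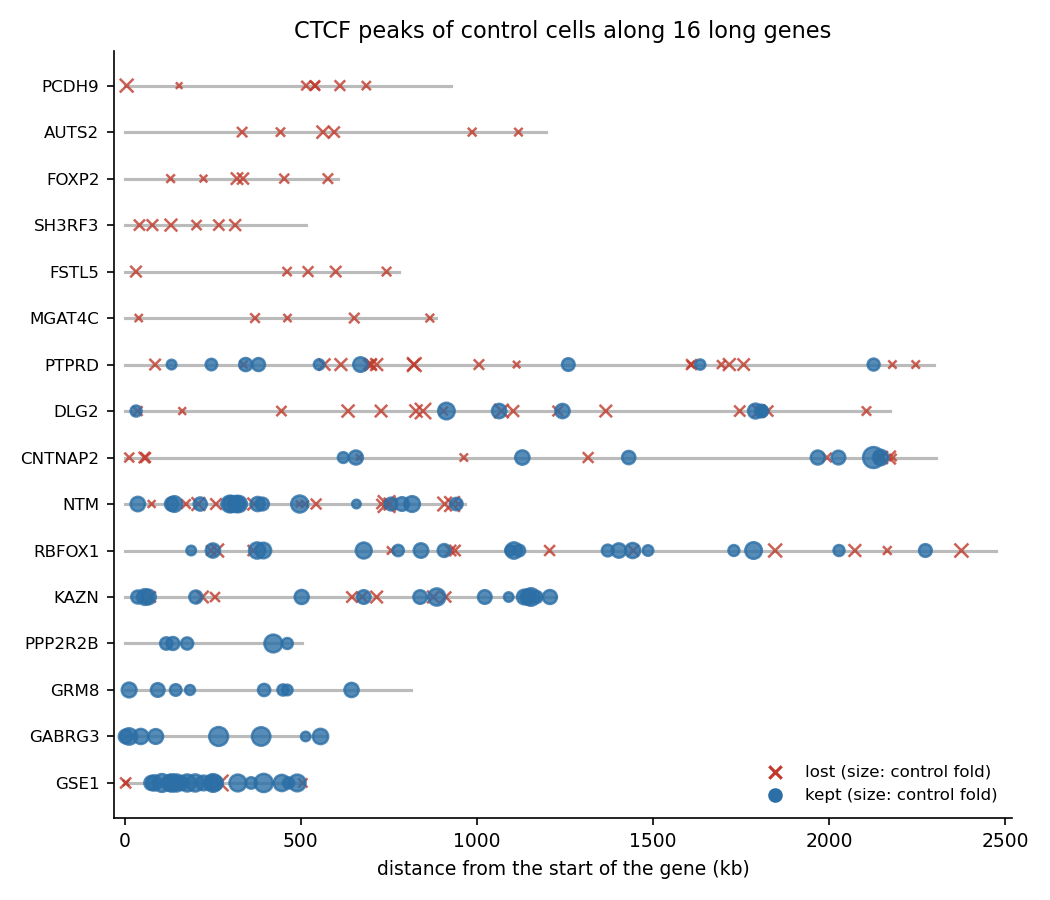
Position of control CTCF peaks along 16 long genes in kb from the start of the gene (horizontal axis; grey line, extent of the gene), with lost peaks as red crosses and kept peaks as blue circles whose size follows control fold. The 6 genes at the top lost all of their peaks, GABRG3, GRM8 and PPP2R2B kept all, and in PTPRD, DLG2, CNTNAP2, NTM, RBFOX1 and KAZN both fates lie intermixed.

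Long genes were also grouped by the role of their product, from textbook knowledge. Members in the 68 genes of surface adhesion and the synapse were lost in 56.7% of 787 cases (53.2 to 60.1), and 47 of the 57 such genes with at least 5 members were above the background of 42.7%, against 194 of 262 over all long genes. In the 29 genes of common fragile sites, 58.1% of 377 members were lost (53.1 to 63.0), with 23 of 27 such genes above the background. The share was 55.1% for genes of the cytoskeleton, matrix and trafficking, 53.3% for transcription, chromatin and RNA-binding (21 of 31 genes above the background), 52.2% for channels, transporters and receptors, and 51.6% for signalling enzymes and adaptors. Long genes in none of these groups had 51.4% (47.9 to 54.9). The median control fold was between 25.7 and 27.7 in every group. The median GC content was lowest in the fragile site genes (39.4%) and the adhesion and synapse genes (40.4%). It was highest in the channels, transporters and receptors (43.2%). Genes can be in more than 1 group, and no group was tested against another.

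By distance from the start of the gene, the direction of the difference depended on the peaks included. Members more than 100 kb from the start of their gene were lost in 54.1% of cases and those within 100 kb in 51.4%, a difference of 2.72 points (-2.47 to 7.94), and it was reversed, to -6.29 points (-12.2 to -0.120), when both lists were restricted to an FDR of at most 1e-05. By relative position, in 10 parts of the gene, loss showed no steady trend. The share was lowest, at 48.0% (43.3 to 52.7), in the part from 90 to 100% of the length, and highest, at 60.7% (54.6 to 66.5), between 70 and 80%, intervals that do not overlap but belong to the extremes of the 10 parts. The last part also held most members, 429, with the highest median fold, 27.8, and GC content, 43.4%.

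Members far from any other control peak were lost more often, with neither fold nor GC content held equal. The share was 50.7% (46.3 to 55.0) where the nearest control peak was within 5 kb and 50.4% where it was between 5 and 20 kb away. Where the nearest peak was more than 100 kb away, the share was 60.5% (54.3 to 66.4). From the closest to the farthest of these groups, the median control fold went from 27.0 to 24.8 and the median GC content from 41.8% to 40.0%. Over all pairs of neighbours, a member that followed a lost member of the same gene was lost in 56.4% of 1466 cases. One that followed a kept member was lost in 51.1% of 1263. These pairs share peaks and were pooled over genes with unlike lost shares, which was not accounted for. The difference was 5.26 points (1.51 to 8.997). It was 4.60 points (-2.21 to 11.3) for pairs at most 20 kb apart and 5.97 points (-1.71 to 13.6) for pairs over 100 kb apart, and neither of these exceeded counting error. By annotation, 2975 of the 3038 members (97.9%) were centred in introns, 35 in coding exons and 28 in untranslated regions.

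**Figure D5:**
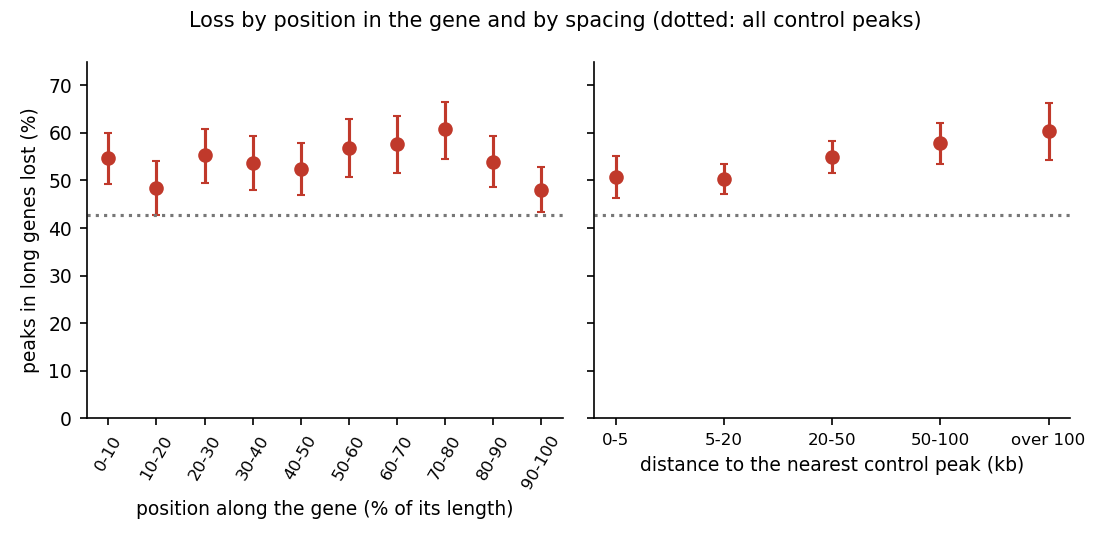
Lost share of members (%, vertical axis) by position along the gene (left, % of its length from the start) and by distance to the nearest control peak (right, kb), with Wilson 95% intervals; the dotted line is the 42.7% of all control peaks. The left panel stays between 48.0% and 60.7% without a steady trend, and the right panel goes from 50.7% within 5 kb to 60.5% beyond 100 kb.

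The density of CTCF peaks in long genes was low before treatment and fell further. Control cells had 11.9 members per Mb of long gene, against 18.3 peaks per Mb in shorter genes. Treated cells had 1475 peaks by the same position rule, which is 48.6% of the number of members, whereas in shorter genes the treated number was 64.0% of the control number. Few peaks arose: 66 of the 1475 treated peaks overlapped no control peak, 4.47% (3.53 to 5.65), against 8.08% of all treated peaks on chromosomes 1 to 22, 8.77% in shorter genes and 5.17% outside genes. They lay in 51 genes, with at most 5 in a gene, in CDH4, a cadherin gene, and SORCS2, a sorting receptor gene.

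Most of the 1406 kept members were called as narrower peaks after treatment. Their median width was 350 bp in control cells and 300 bp in the treated list, and 66.9% of them (64.4 to 69.3) were narrower after treatment while 9.96% were wider and 325 had the same width. In peaks kept in shorter genes, 65.1% were narrower (64.1 to 66.0), and outside genes 63.7% (62.8 to 64.6), so narrowing was about as common there. Wider peaks made up 14.0% of those kept in shorter genes and 13.3% of those kept outside genes.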

How the data were processed

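CTCF ChIP-seq of HT1080 cells was analysed, with 2 ChIP and 2 input libraries per condition. Samples were grouped by their labels. Per the study's methods, the authors mapped reads to hg19 with Bowtie2 2.2.3, removed non-unique reads and duplicates with SAMtools 1.5, and called peaks with PePr (windows of 100 bp, p-value cutoff of 0.05) on both replicates together. The deposited lists give for each peak a fold enrichment over input, which is a ratio, and a p-value and FDR computed by the authors. Lists of differential sites hold only the authors' own comparison of the conditions and were not used. Library depth and replicate values are not in the peak lists.

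Peaks were placed on GRCh37 with GENCODE v44lift37. A peak inside several long records was assigned to the longest. Starts were those of protein-coding transcripts of protein-coding genes. Fate was overlap of any length. Shares have Wilson and differences Newcombe 95% intervals, and differences at equal fold or GC content were averaged over 10 groups (5 by 5 for both). The CTCF consensus core of 12 letters was searched on both strands over 400 bp around the peak centre. Named genes were the 25 with most members (ties in alphabetical order), those with at least 5 members all lost or all kept, and the records next to 500 kb. Named peaks were the 5 strongest lost, 5 weakest kept and 3 strongest kept, of which some are not reported here. Other overlap rules, FDR and fold minimums, list sizes, gene lengths and distances were tried. The members and lists were chosen with earlier results of these data known. Routines were tested on simulated data. Tables were handled with pandas 2.3.3 and numpy 2.4.6 in Python 3.11.15. The genome was indexed with samtools 1.23.1 and read through pysam 0.24.0, and plots were drawn with matplotlib 3.10.9.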

Additional observations from a re-analysis of the deposited data

How the results depend on the processing

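No paired analysis was possible because each peak list merges both replicates, and for the same reason no replicate could be left out. The higher loss of members than of peaks in shorter genes and outside genes kept its direction, with an interval above 0, under every alternative run. The lost share of members was 60.7% where more than 50% of the larger peak had to overlap (50.5% over all control peaks), 33.6% when the control list was shortened to the size of the treated list by fold (24.2% over all control peaks), 51.9% in the 5790 peaks of genes over 300 kb and 57.4% in the 884 of genes over 1000 kb. The probability that a kept member had the higher fold fell to 0.753 with the FDR limit of 1e-05 and to 0.674 with the shortened list. The difference by distance from the start reversed to -6.29 points with this limit and to -0.787 in genes over 300 kb, and that by core direction to 4.87 points with it and to 0.224 without mismatches; the cause was not tested. Comparisons with peaks within 500 kb of a long gene, at equal fold outside genes, and at equal fold and GC content were chosen after seeing the data.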

Other observations

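Some long genes outside the naming rules were chosen after their values were seen, because their fates were far from those given by control fold alone. NRG1, a neuregulin growth factor, lost 10 of 11 members, where fold alone gave 4.35, and the 10 lost peaks followed each other over 515 kb. EYS, a photoreceptor protein, lost 11 of 13 where fold gave 5.82, and ZFHX3, a homeobox transcription factor, lost 13 of 18 where fold gave 7.53. CACNA2D3, a calcium channel subunit, lost 12 of 15 where fold gave 7.36. In the other direction, KCNMA1, a potassium channel, lost 4 of 16 where fold gave 7.31, BBS9, a protein of the primary cilium, lost 4 of 14 where it gave 7.47, and ZBTB20, a transcription factor, lost 3 of 12 where it gave 6.03. KSR2, a scaffold of the ras pathway, was chosen for its row of 10 kept peaks instead, and lost 1 of 11 where fold gave 2.32. The longest row of kept peaks was the 13 of GSE1 over 183 kb. These counts have no replicate error and were not tested.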
